A study of Mus musculus with 4 samples.

Results

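Small nucleolar and nuclear structural RNAs are short non-coding RNAs that work inside protein complexes of the nucleus. They were taken from the count tables by name. Genes whose symbol starts with Snora, Snord, Scarna or Rnu, or is Rn7sk, Rpph1 or Rmrp, were kept where their counts summed to at least 10 over the libraries. The rule kept 69 of 49997 listed genes. Before the minimum it matched 168 genes, of which 48 had no count in any library and 51 had 1 to 9 counts. The 69 comprised 3 RNAs of the 7SK, RNase P and RNase MRP particles, 6 of 23 U RNAs, 6 of 9 small Cajal body RNAs (scaRNAs), 26 of 39 H/ACA box small nucleolar RNAs (snoRNAs) and 28 of 94 C/D box snoRNAs. Just inside the minimum, at 10 counts, were Snord49b, Snord14c, Rnu3b4, Rnu5g, Scarna9, Snora69 and Snora30, and just outside it, at 9 counts, were Snord12 and Snord43.

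C/D box snoRNAs guide the methylation of ribose in ribosomal RNA (rRNA), H/ACA box snoRNAs guide the conversion of uridine to pseudouridine, and scaRNAs do the same for the RNAs of the spliceosome. Most vertebrate snoRNAs are cut out of the introns of a host gene, whereas the 7SK, RNase P and RNase MRP RNAs are transcribed by RNA polymerase III from genes of their own. A few snoRNAs, among them U3, U8, U17 and U22, act in the cleavage of the rRNA precursor instead of its modification.

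The RNA came from wild-type iMOP cells, a mouse otic progenitor line that was immortalized. Such progenitors are the cells that give rise to neurons and hair cells of the inner ear. The group labelled proliferating (2 libraries) grew in DMEM/F12 medium with N21 supplement, carbenicillin and 20 ng/ml of the growth factor bFGF. The group labelled neuron (2 libraries) was kept in Neurobasal medium with N21, L-glutamine and 1 µM K03861, which inhibits CDK2, a kinase of the cell cycle. Each group has a library numbered 1 and a library numbered 2, and the labels neither say what the numbers stand for nor that the libraries came from separate cultures, so p-values measure only the spread between these samples. Total RNA was depleted of rRNA before library construction, with no step named that selects short RNAs.

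Outside 7 rRNA genes, proliferating 1 had 292302 counts, proliferating 2 had 614465, neuron 1 had 3241915 and neuron 2 had 617872, and rRNA genes took 88.2% to 98.1% of all counts. CPM below scales each count to 1000000 counts outside rRNA, and a count of 0 allows up to 10.3, 4.88, 0.925 and 4.86 CPM in that order, taking 3 counts as the limit. Markers of dividing cells and neuron markers ran opposite to the group labels. The summed level of 8 genes of dividing cells was 246 and 451 CPM in the libraries labelled proliferating and 1941 and 2669 CPM in those labelled neuron, while 11 neuron markers summed to 2631 and 2570 CPM in the former and 1714 and 1206 CPM in the latter. Progenitor markers ran with the labels, as 10 genes summed to 3459 and 7563 CPM in the libraries labelled proliferating and 2582 and 1520 CPM in those labelled neuron. Marker sums of mesenchyme and immune cells were at most 13.7 CPM, and Neurog1, Pax8, Sox10, Pou4f3 and Otof were at 0 in all 4 libraries. Directions between groups below are therefore those between libraries carrying these labels, and the part of the markers in them was not tested.

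Sequences of the RNAs that carry most of the counts, or that went against the rest of their class, are printed from the GENCODE M21 transcripts of the mouse genome build GRCm38 (mm10), in lower case. In Rn7sk (chr9:78175303-78175633, minus strand) capitals mark GATC in the first 100 bases, the motif through which 7SK RNA binds the inhibitor protein HEXIM. It occurred 3 times, which is a match of letters and does not mean that HEXIM binds at each. For Rn7sk and Rpph1, of 331 and 319 bases, the first 300 bases are shown. Rpph1 (chr14:50807449-50807767, minus strand), the RNA of RNase P, and Rmrp (chr4:43492783-43493063, minus strand), the RNA of RNase MRP, carry no capitals.
Rn7sk: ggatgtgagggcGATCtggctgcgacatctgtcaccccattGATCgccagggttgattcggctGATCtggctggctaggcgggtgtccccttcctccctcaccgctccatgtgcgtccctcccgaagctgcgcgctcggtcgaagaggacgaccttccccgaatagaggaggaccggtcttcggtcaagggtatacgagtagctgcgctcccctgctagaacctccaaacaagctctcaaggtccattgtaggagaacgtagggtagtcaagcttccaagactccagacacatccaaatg
Rpph1: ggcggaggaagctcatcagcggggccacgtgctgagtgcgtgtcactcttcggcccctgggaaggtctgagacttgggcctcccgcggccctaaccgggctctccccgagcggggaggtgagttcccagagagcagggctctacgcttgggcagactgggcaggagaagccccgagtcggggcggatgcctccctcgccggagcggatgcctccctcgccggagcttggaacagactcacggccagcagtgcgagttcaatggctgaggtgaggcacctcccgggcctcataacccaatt
Rmrp: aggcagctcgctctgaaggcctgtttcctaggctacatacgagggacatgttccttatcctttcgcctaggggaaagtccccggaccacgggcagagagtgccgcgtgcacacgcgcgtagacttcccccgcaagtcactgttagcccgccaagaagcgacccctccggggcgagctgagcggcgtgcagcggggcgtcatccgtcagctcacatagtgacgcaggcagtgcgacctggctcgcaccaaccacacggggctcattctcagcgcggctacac

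Capitals in the next 2 sequences mark the ACA of H/ACA box RNAs where it lies in the last 10 bases. They are Snora73a (chr4:132352775-132352979, minus strand), a U17 RNA, and Scarna13 (chr12:105031075-105031349, minus strand). Snora81 (chr16:23110756-23110933, plus strand) is shown with them because it moved opposite to the other 5 tested H/ACA box RNAs, and it has no ACA in that window.
Snora73a: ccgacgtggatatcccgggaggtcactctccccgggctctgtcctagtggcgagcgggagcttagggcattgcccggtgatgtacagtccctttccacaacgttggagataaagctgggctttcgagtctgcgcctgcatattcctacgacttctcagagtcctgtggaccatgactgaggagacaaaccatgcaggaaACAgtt
Scarna13: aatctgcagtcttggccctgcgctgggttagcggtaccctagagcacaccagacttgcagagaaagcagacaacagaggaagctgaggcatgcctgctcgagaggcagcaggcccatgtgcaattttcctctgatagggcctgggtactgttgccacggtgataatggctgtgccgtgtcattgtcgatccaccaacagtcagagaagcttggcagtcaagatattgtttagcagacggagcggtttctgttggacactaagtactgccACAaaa
Snora81: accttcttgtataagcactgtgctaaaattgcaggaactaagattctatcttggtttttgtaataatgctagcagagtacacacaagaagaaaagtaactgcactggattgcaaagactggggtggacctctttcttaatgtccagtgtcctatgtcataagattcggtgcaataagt

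For the C/D box RNAs, capitals mark TGATGA, a form of the C box, and CTGA, the D box, the latter within the last 15 bases. These are Rnu3a (chr10:40258467-40258679, plus strand), the U3 RNA, which is a C/D box RNA despite its U name, Snord17 (chr2:144265979-144266216, minus strand) and Snord21 (chr5:107904555-107904648, plus strand).
Rnu3a: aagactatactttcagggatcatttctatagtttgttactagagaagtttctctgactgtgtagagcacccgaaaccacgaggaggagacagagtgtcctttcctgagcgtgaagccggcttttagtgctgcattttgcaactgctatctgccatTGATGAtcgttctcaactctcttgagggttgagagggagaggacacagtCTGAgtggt
Snord17: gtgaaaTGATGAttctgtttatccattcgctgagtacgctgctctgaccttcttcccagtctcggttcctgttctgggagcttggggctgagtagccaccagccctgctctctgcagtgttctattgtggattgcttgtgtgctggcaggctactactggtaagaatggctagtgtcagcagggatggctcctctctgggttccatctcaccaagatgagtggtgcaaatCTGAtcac
Snord21: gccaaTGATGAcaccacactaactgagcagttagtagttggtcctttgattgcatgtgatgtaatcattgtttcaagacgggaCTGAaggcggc

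The boxes were also searched in the other members, on the RNA strand only. Of 27 C/D box snoRNAs with a transcript at their position, 19 had TGATGA in the first 30 bases, 26 had CTGA in the last 15 and 18 had both (66.7%). Of 26 H/ACA box snoRNAs, 24 had ACA in the last 10 bases (92.3%). Over the same windows of 58797 protein-coding transcripts the shares were 0.633% for TGATGA, 7.18% for CTGA, 0.0442% for both and 14.6% for ACA. TGATGA and CTGA can share TGA, and ACA can share 1 A with either, where windows meet. A match describes letters and not a working box.

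The RNase P, RNase MRP and 7SK RNAs dominated the counts of small RNAs and were far lower in the libraries numbered 2. The 3 together made up 4.78% of the counts outside rRNA in proliferating 1 (95% Wilson interval 4.70% to 4.86%), 2.37% in neuron 1 (2.35% to 2.38%), 0.405% in proliferating 2 (0.389% to 0.421%) and 0.352% in neuron 2 (0.337% to 0.367%). Both libraries numbered 1 were above both numbered 2, by 11.8-fold within proliferating and 6.73-fold within neuron. Mitochondrial mRNA moved with the numbers too, at 2.35% and 2.53% of the counts outside rRNA in proliferating 1 and neuron 1 and 10.6% and 14.6% in proliferating 2 and neuron 2, and its part in this and the following differences between numbers was not tested. With 2 libraries against 2, the exact two-sided permutation test of a share can reach no p below 0.333, which is the value here.

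The other classes were rarer, and each is given in the order proliferating 1, proliferating 2, neuron 1, neuron 2. H/ACA box snoRNAs took 0.153%, 0.0257%, 0.0744% and 0.0175% of the counts outside rRNA. C/D box snoRNAs took 0.0510%, 0.0125%, 0.0304% and 0.00793%. In both classes the libraries numbered 2 lay below the libraries numbered 1. Within proliferating and neuron this was 5.96-fold and 4.26-fold for H/ACA box and 4.07-fold and 3.83-fold for C/D box snoRNAs. The C/D box class was drawn by name and leaves out the U3 RNA Rnu3a, which is counted with the U RNAs. In the same order Rnu3a had 126, 308, 751 and 109 counts, beside 149, 77, 984 and 49 for the whole C/D box class. The C/D box ratios therefore hold for the named class only and not with U3 added. The scaRNAs took 0.0315%, 0.00212%, 0.0243% and 0.00129%, and showed a ratio of 14.9-fold in proliferating and 18.8-fold in neuron libraries. That rests on 13 and 8 counts in the libraries numbered 2. For these 3 classes the exact permutation p was again 0.333, the smallest possible.

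U RNAs stood apart from that pattern. Their share was 0.0657%, 0.0548%, 0.0364% and 0.0212%, so the proliferating libraries lay above the neuron libraries and the numbers overlapped. The difference between groups was -1.11 on the log2 scale, neuron over proliferating, with -0.85 within number 1 and -1.37 within number 2 (exact permutation p = 0.333, the smallest possible). Between numbers it was -0.52 (exact permutation p = 0.667), and 0.17 without neuron 2. Of all U RNA counts, U3 (Rnu3a) made up 63.6% to 91.4%. Without Rnu3a the U RNAs differed by -2.08 between numbers and -0.59 between groups.

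**Figure D1:**
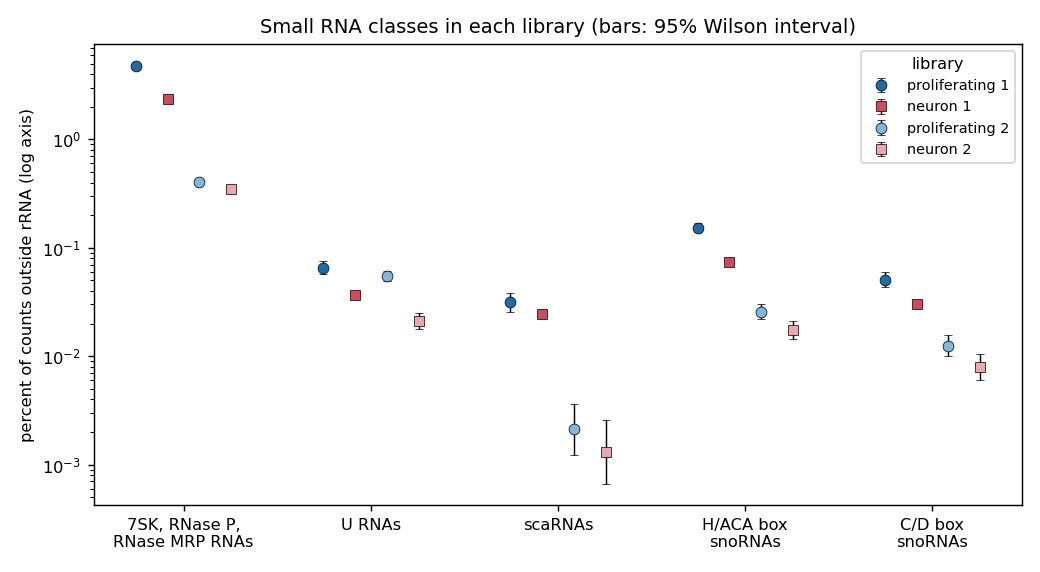
Share of the counts outside rRNA (percent, log axis) for each class of small RNA in each of the 4 libraries, with 95% Wilson intervals that cover counting error only. For all classes but U RNAs both libraries numbered 2 lie below both numbered 1, as in the 7SK, RNase P and RNase MRP RNAs at 0.405% and 0.352% against 4.78% and 2.37%.

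Between the groups the other 4 classes overlapped. All 4 were lower in the neuron library within each number, by -0.20 (7SK, RNase P and RNase MRP RNAs, number 2) to -1.04 (H/ACA box, number 1), with an exact permutation p of 0.667. Direction depended on the library and on the denominator. Without proliferating 1 the difference between groups became 1.17 for the 7SK, RNase P and RNase MRP RNAs, 1.41 for scaRNAs, 0.49 for H/ACA box and 0.31 for C/D box snoRNAs, and without neuron 2 it became 0.77, 1.58, 0.25 and 0.26. As shares of all counts, rRNA included, all 5 classes were higher in the neuron group, by 0.056 for U RNAs to 0.63 for scaRNAs. In bulk RNA fewer cells of a type and less RNA per cell cannot be told apart.

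Of the 69 RNAs, 20 passed edgeR's filter on low counts and were tested within the fit of 9009 genes, and 49 were not tested. Between groups, edgeR called 0 members and 0 genes at an adjusted p under 0.05, so that 0.0% were called higher and 0.0% lower. At an unadjusted p under 0.05 there were 97 genes and 0 members, and DESeq2 and limma also called 0. With group and number both in the model, edgeR called 56 genes higher, 29 lower and 0 members. At an unadjusted p under 0.05 that fit had 892 genes and 3 members. Rnu3a and Snord21 were the tested members whose libraries did not overlap, both lower in the neuron libraries, against 8.04% of all tested genes. Snord21 passed the filter only through the proliferating libraries, so it had to be lower. The corresponding background for genes higher without overlap was 12.3%, and 0 tested members were among them.

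Between numbers, 12 of the 20 tested members were lower and 1 was higher in the libraries numbered 2 (edgeR, adjusted p under 0.05), where 17.6% of all tested genes were lower and 7.17% higher. Groups of libraries did not overlap for 17 members that were lower, against 41.0% of tested genes, and for 1 that was higher, against 20.8%. However, 12 of the 20 reached the filter's 16.2 CPM only in libraries numbered 1, so the filter fixed that they are lower in those numbered 2. They are Rnu12, Scarna2, Scarna6, Scarna13, Snora23, Snora44, Snora73b, Snora74a, Snord15b, Snord17, Snord22 and Snord118, and their fold changes and p-values below are descriptions and not tests. Of these 12, 9 were called lower, and of all 1734 tested genes that passed in this way 68.7% were. Of the other 8 members, Rpph1, Rmrp and Snora73a were called lower, Snora81 was called higher, and Rn7sk, Rnu11, Rnu3a and Snord21 did not pass. Among the 7101 genes that passed through libraries of both numbers, 5.56% were called lower and 7.48% higher. Another 174 tested genes passed only through libraries numbered 2, which fixed that they were higher there, and 66.1% were called higher. Leaving out proliferating 1, 9 of 21 tested members were called lower and 0 higher, with 472 genes called lower in all.

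Rpph1, the RNA subunit of the enzyme that trims the leader from transfer RNA precursors, was at 15604 CPM in proliferating 1, 179 in proliferating 2, 7828 in neuron 1 and 87.4 in neuron 2. Both libraries numbered 1 were above both numbered 2, by 87.2-fold within proliferating and 89.6-fold within neuron. The edgeR log2 fold change, number 2 over number 1, was -6.10 (SE 1.02, adjusted p = 0.002).

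Rmrp, whose particle cleaves the rRNA precursor, was at 7544, 329, 4194 and 204 CPM in the same order of libraries. It fell 22.9-fold in the proliferating and 20.6-fold in the neuron libraries from number 1 to number 2, with a log2 fold change of -4.09 (SE 0.86, edgeR adjusted p = 0.004). Rn7sk, the RNA that holds the elongation kinase P-TEFb inactive, was at 24646, 3538, 11647 and 3224 CPM. Its libraries numbered 1 and 2 did not overlap either, with 6.97-fold and 3.61-fold ratios, but the log2 fold change of -2.04 (SE 0.89) did not pass the threshold (edgeR adjusted p = 0.094). It passed with the replicate block (group and number both in the model, -1.92, edgeR adjusted p = 0.020), with DESeq2 (-2.02, adjusted p = 0.012) and with limma on log2(RPKM + 0.1) and log2(RPKM + 1) (-3.82 in each, adjusted p = 0.005 and 0.036). It also passed without proliferating 2 (-1.99, edgeR adjusted p = 0.044) and without neuron 2 (-2.00, edgeR adjusted p = 0.023), and over all alternatives the adjusted p ran from 0.005 to 0.529.

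The proportions of the 3 RNAs to each other differed between the numbers. Rn7sk supplied 51.6% and 49.2% of their joint counts in proliferating 1 and neuron 1 and 87.4% and 91.7% in the libraries numbered 2. Counts of Rn7sk to Rpph1 stood at 1.58 and 1.49 in proliferating 1 and neuron 1, against 19.8 and 36.9 in proliferating 2 and neuron 2. Per kilobase of counted length, mean levels over the 4 libraries were 32420 CPM for Rn7sk, 18229 for Rpph1 and 11154 for Rmrp. Between groups, edgeR gave log2 fold changes of -0.95 (SE 1.51) for Rn7sk, -1.13 (SE 1.92) for Rpph1 and -0.96 (SE 1.59) for Rmrp, none called, and each turned positive without proliferating 1, to 0.85, 4.12 and 2.42.

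Among the U RNAs, Rnu3a, the U3 RNA needed for the first cleavages of the rRNA precursor, was at 431, 501, 232 and 176 CPM in proliferating 1, proliferating 2, neuron 1 and neuron 2. Both proliferating libraries were above both neuron libraries, and the numbers overlapped. The log2 fold change between groups was -1.20 (SE 1.01, edgeR adjusted p = 1.00), and between numbers 0.39 (SE 0.68, edgeR adjusted p = 0.695). The latter was -0.39 without proliferating 2 and -0.15 without neuron 1.

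Rnu11 and Rnu12 encode the U11 and U12 RNAs of the minor spliceosome, which work together in intron recognition. Rnu11 had 34, 25, 203 and 21 counts, or 116, 40.7, 62.6 and 34.0 CPM, and its log2 fold change between numbers of -0.84 (SE 0.69) was not called (edgeR adjusted p = 0.373). Rnu12 had 31, 3, 190 and 1 counts, or 106, 4.88, 58.6 and 1.62 CPM, with a log2 fold change of -4.22 (SE 0.91, edgeR adjusted p = 0.004), whose direction the filter fixed. The difference between the 2 RNAs was not tested. The remaining U RNAs, Rnu1a1, Rnu5g and Rnu3b4, had 10 to 19 counts each, all but 2 of them in neuron 1. Counts of Rnu1a1 (U1) and Rnu3b4 (U3) are uncertain, as 22 and 12 other annotated genes are at least 95% identical to them. In all, 19 of the 69 members have at least 1 such copy, among them Rnu12, Snora81 and Snord118. Rmrp and Rnu3a are also among them, but 2 genes are annotated at the position of each, so the copy may lie there.

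**Figure D2:**
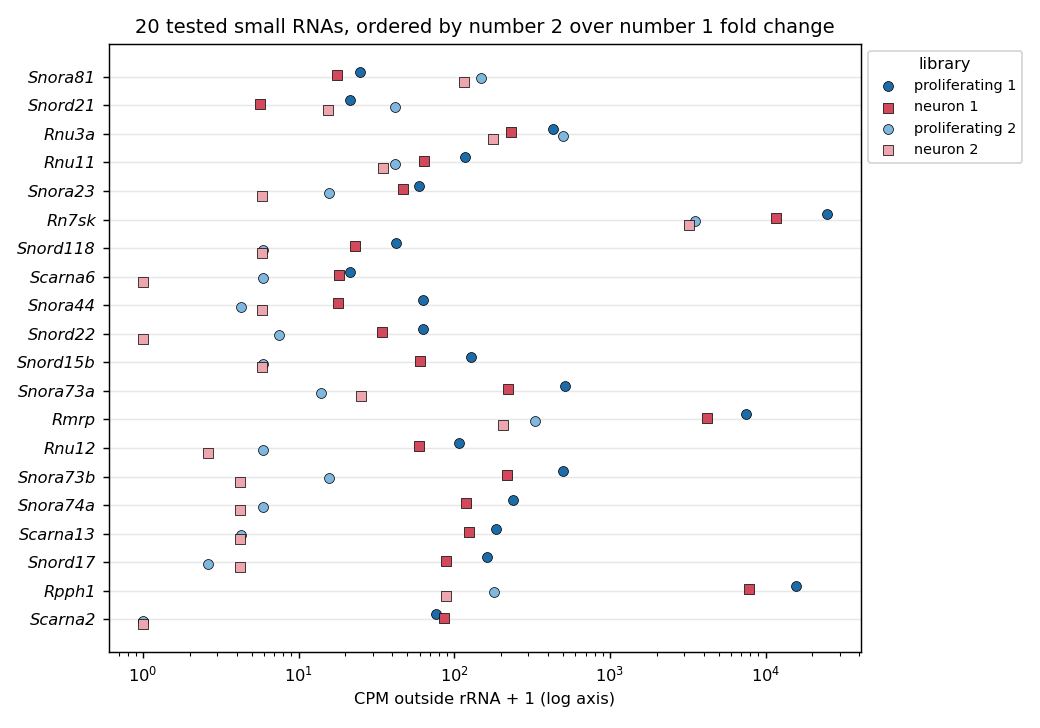
Level of the 20 tested small RNAs in each library, as CPM outside rRNA plus 1 on a log axis, ordered by their edgeR fold change between replicate numbers. Circles are libraries labelled proliferating and squares those labelled neuron, with number 2 in paler colours, and the paler points lie left of the darker ones for 17 of the 20 and right of both for Snora81.

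Of the scaRNAs, Scarna2, a guide for U2 RNA, was found in the libraries numbered 1 only. It had 22 counts in proliferating 1, 276 in neuron 1 and 0 in proliferating 2 and neuron 2. Against a limit of 3 counts per library it was at least 15.4-fold lower in proliferating 2 than in proliferating 1, and at least 17.5-fold lower in neuron 2 than in neuron 1 (edgeR adjusted p between numbers 0.002). Its counted length is 61 bases, while the GENCODE transcript at its position is longer, so its GC content below may not describe the counted stretch. Scarna13 had 54, 2, 400 and 2 counts, with a log2 fold change between numbers of -5.13 (SE 0.87, edgeR adjusted p = 0.002), its direction again fixed by the filter. Scarna6 had 6, 3, 56 and 0 counts, and its log2 fold change of -2.47 (SE 0.94) was not called (edgeR adjusted p = 0.061). The other 3, Scarna17, Scarna10 and Scarna9, had 10 to 40 counts in total and were not tested.

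In the H/ACA box class 2 copies of U17, Snora73a and Snora73b, held most counts of the libraries numbered 1. They are 96.6% identical, differing by 7 edits, so that the split of reads between them is uncertain. Snora73a had 150, 8, 712 and 15 counts, or 513, 13.0, 220 and 24.3 CPM, and a log2 fold change between numbers of -3.88 (SE 0.77, edgeR adjusted p = 0.003). Snora73b had 145, 9, 710 and 2 counts, or 496, 14.6, 219 and 3.24 CPM, with a log2 fold change of -4.95 (SE 0.85, edgeR adjusted p = 0.002). Both libraries numbered 1 were above both numbered 2 for each. The pair made up 65.8% and 58.9% of the H/ACA box counts in proliferating 1 and neuron 1 and 10.8% and 15.7% in the libraries numbered 2.

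Snora81 went the other way. It had 7 counts in proliferating 1, 91 in proliferating 2, 54 in neuron 1 and 71 in neuron 2, or 23.9, 148, 16.7 and 115 CPM. Both libraries numbered 2 were above both numbered 1, by 6.18-fold within proliferating and 6.90-fold within neuron, and the log2 fold change was 3.17 (SE 0.71, edgeR adjusted p = 0.005). The call was lost without proliferating 1 (3.41, edgeR adjusted p = 0.055) and without neuron 1 (2.67, edgeR adjusted p = 0.145). Snora81 supplied 1.56% and 2.24% of H/ACA box counts in proliferating 1 and neuron 1, against 57.6% and 65.7% in proliferating 2 and neuron 2. It overlaps an exon of a transcript of Eif4a2, a translation factor gene, but of no transcript annotated as protein-coding. Eif4a2 itself was at 171, 233, 195 and 424 CPM, and whether its reads were counted for Snora81 was not tested.

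The other tested H/ACA box RNAs were lower in the libraries numbered 2. Snora74a, a U19 RNA, had 69, 3, 380 and 2 counts (log2 fold change -5.02, SE 0.86, edgeR adjusted p = 0.002). Snora44 had 18, 2, 55 and 3 counts (-2.71, SE 0.92, edgeR adjusted p = 0.039), and its call was lost without any 1 of the 4 libraries, at an edgeR adjusted p of 0.054 to 0.666. Snora23 had 17, 9, 148 and 3 counts and was not called (-2.00, SE 0.79, edgeR adjusted p = 0.067), but was without proliferating 2 (-2.85, edgeR adjusted p = 0.027). The other 20 H/ACA box members had 10 to 52 counts in total and were not tested. Of these, Snora15 had its highest count, 11, in proliferating 2, and Snora30 had 5 counts in both proliferating 2 and neuron 1.

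Among C/D box snoRNAs, Snord17 had 47, 1, 285 and 2 counts, or 161, 1.63, 87.9 and 3.24 CPM. The libraries numbered 1 were well above those numbered 2, with a log2 fold change of -5.21 (SE 0.93, edgeR adjusted p = 0.002). Snord15b had 37, 3, 192 and 3 counts (-3.81, SE 0.86, edgeR adjusted p = 0.005). Its call was lost without proliferating 1 (-3.15, edgeR adjusted p = 0.089). Snord22, the U22 RNA needed for maturation of the small ribosomal subunit RNA, had 18, 4, 108 and 0 counts (-3.41, SE 0.98, edgeR adjusted p = 0.018), and was lost without proliferating 1 (-2.93, edgeR adjusted p = 0.294) and without neuron 2 (-2.42, edgeR adjusted p = 0.069).

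Snord118, the U8 RNA needed for maturation of the large subunit RNAs, had 12, 3, 72 and 3 counts and missed the threshold (-2.18, SE 0.81, edgeR adjusted p = 0.056). Snord21 was at 20.5, 40.7, 4.63 and 14.6 CPM. It was the tested C/D box snoRNA with both proliferating libraries above both neuron libraries, and within each group the library numbered 2 was the higher. Neither difference was called by edgeR, at -1.63 between groups (SE 1.41, adjusted p = 1.00) and 1.94 between numbers (SE 0.88, adjusted p = 0.109), though the latter was called without neuron 2 (2.52, adjusted p = 0.039). The other 23 C/D box members had 10 to 61 counts and were not tested. Snord14e, Snord16a, Snord45b, Snord42b, Snord4a and Snord14c had 0 counts in proliferating 1 and 2 to 7 in each library numbered 2, a small number in which a count of 0 allows up to 10.3 CPM.

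The depth of neuron 1 shaped which RNAs could be seen at all. It held the highest count of 65 of the 69 members and had at least 1 count for all 69, against 48, 50 and 38 in proliferating 1, proliferating 2 and neuron 2. The minimum of 10 summed counts therefore selects mostly RNAs detected there. Counts in all 4 libraries were present for 25 members, and 60 had under 10 counts in both libraries numbered 2. Their absence in a library other than neuron 1 was often not detectable at this depth.

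GC content moved with the ratio between numbers. Over the 22 members with at least 50 counts, the Spearman correlation of the log2 ratio of number 2 to number 1 with GC content was -0.73, and with counted length -0.23. These points share the 4 libraries and, in part, a high count in neuron 1, and the coefficients are descriptive. Snora81, at 38.8% GC, had the highest log2 ratio, 2.67. Snord21 (45.7%) followed at 1.10 and Rnu3a (46.5%) at 0.03, whereas Snora23, with 43.5%, had -2.35. Scarna2 (64.0%) and Rpph1 (67.1%) had the lowest ratios of the 22. Rn7sk, at 58.0%, lay above other RNAs of similar GC content.

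Summed over all 68 members with a sequence, the 14 with under 45% GC had a log2 ratio of number 2 to number 1 of 1.08 in the proliferating and 0.66 in the neuron libraries. Snora81 held most of that bin's counts in the libraries numbered 2, and without it the ratios were -0.28 and -1.14. For the 41 with 45% to 55% it was -1.30 and -1.71, and for the 13 with 55% or more it was -3.59 and -2.77. Rnu3a held 308 of 438 counts of the middle bin in proliferating 2 and 109 of 185 in neuron 2. The 7SK, RNase P and RNase MRP RNAs held nearly all counts of the highest bin. In proliferating 1, proliferating 2, neuron 1 and neuron 2 these were 13970 of 14303, 2486 of 2504, 76730 of 78591 and 2172 of 2190. The order of the 3 bins was the same in both groups, with and without Snora81. Other genes showed the same order. Among 8651 tested genes that are no members and have a GC value, the median edgeR log2 fold change between numbers was 1.29 under 45% GC, -0.09 from 45% to 55% and -2.65 at 55% or more, and 0.121%, 10.01% and 63.6% were called lower. Medians of the tested members in these bins were 0.58 (2 members), -3.06 (12) and -4.52 (6). These are not like for like with the other genes. Of the 20 tested members, 12 passed the filter only through libraries numbered 1, most of them with 45% to 55% GC. That fixed that they were lower, as it did for 1734 of all 9009 tested genes. The part of GC content in the members' differences was not tested.

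**Figure D3:**
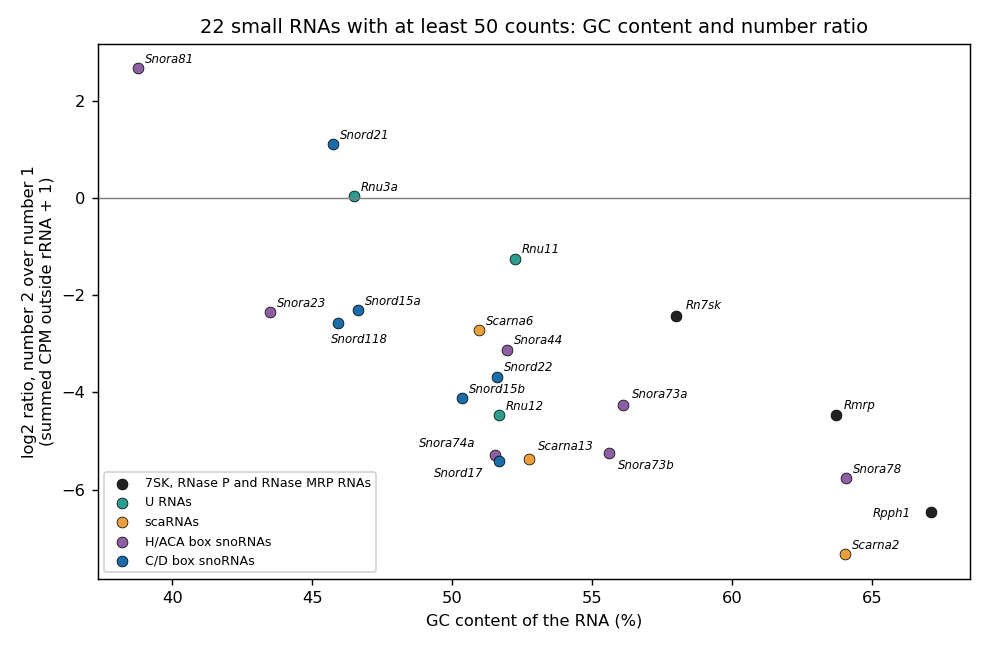
GC content of the RNA (percent, horizontal) against the log2 ratio of summed CPM, number 2 over number 1 (vertical, 1 CPM added), for 22 small RNAs with at least 50 counts, coloured by class. Snora81 at 38.8% GC lies at the top and Rpph1 and Scarna2, at 67.1% and 64.0%, at the bottom, with a Spearman coefficient of -0.73.

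The genomic setting was read from the GENCODE annotation for the 60 snoRNAs and scaRNAs, a split made with the data in view. A protein-coding host contained 41, a non-coding host 14, and 5 had no host. Of the 14, Snora74a, Snora43 and Snora17 had no GENCODE host on their strand. Their host was taken from RefSeq positions without regard to strand. Snora74a supplied 69 of the 479 counts of members with a non-coding host in proliferating 1 and 380 of 2536 in neuron 1. Those with a non-coding host had summed levels of 1639 and 782 CPM in the libraries numbered 1 of the proliferating and neuron groups and 53.7 and 48.6 CPM in those numbered 2. The log2 ratios were -4.93 and -4.01. Those with no host, among them Snord118, had ratios of -3.52 and -3.71, which rest on 9 and 6 counts in proliferating 2 and neuron 2. Scarna2, with 0 counts there, supplied 22 of their 49 counts in proliferating 1 and 276 of 413 in neuron 1. Members with a protein-coding host had ratios of -0.72 and -0.87, and without Snora81 -1.49 and -1.96. Median GC content was 51.4% with no host, 52.3% with a non-coding host and 46.8% with a protein-coding host, and its part in the difference was not tested.

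Among members with a protein-coding host, the ratio of summed levels differed with position. The 16 that lie in introns had log2 ratios of -2.35 and -2.87. Snord17 alone supplied 47 of their 85 counts in proliferating 1 and 285 of 650 in neuron 1, and ratios without it were not computed. The 25 that overlap an exon of some host transcript had 0.10 and 0.00, or -0.86 and -1.31 without Snora81. Per member the positions hardly differed. The median share of a member's counts in libraries numbered 1 was 86.4% for intronic and 88.9% for exon-overlapping members. For all 25 but Snora7a, the overlapped exon belongs to no transcript annotated as protein-coding, so the split is not one of coding exons against introns. Reads of the host could count for a member that overlaps its exon, and the sources used here do not give the strand and overlap settings of the counting. Host genes are set beside them. The 33 protein-coding hosts summed to 16822, 19225, 13634 and 12263 CPM, which is a log2 ratio of number 2 to number 1 of 0.19 in proliferating and -0.15 in neuron. Hosts of the intronic members had ratios of 0.39 and 0.11, and hosts of the members that overlap an exon -0.02 and -0.29. For the 9 non-coding hosts it was 0.47 and -0.09.

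Single pairs are given side by side. Snhg3, the host of Snora73a and Snora73b, had 4, 25, 77 and 15 counts in proliferating 1, proliferating 2, neuron 1 and neuron 2, or 13.7, 40.7, 23.8 and 24.3 CPM, while both snoRNAs were at 219 to 513 CPM with number 1 and 3.24 to 24.3 CPM with number 2. Snx5, which holds Snord17 in an intron, was at 109, 220, 166 and 278 CPM. Snhg1, the host of Snord22, rose in the libraries numbered 2 (log2 fold change 2.22, SE 0.69, edgeR adjusted p = 0.025), where Snord22 was lower. Snhg7, the host of Snora43 and Snora17, passed the filter only through libraries numbered 1 and was lower in those numbered 2 (-2.53), and Snora43 had 7, 1, 27 and 0 counts.

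**Figure D4:**
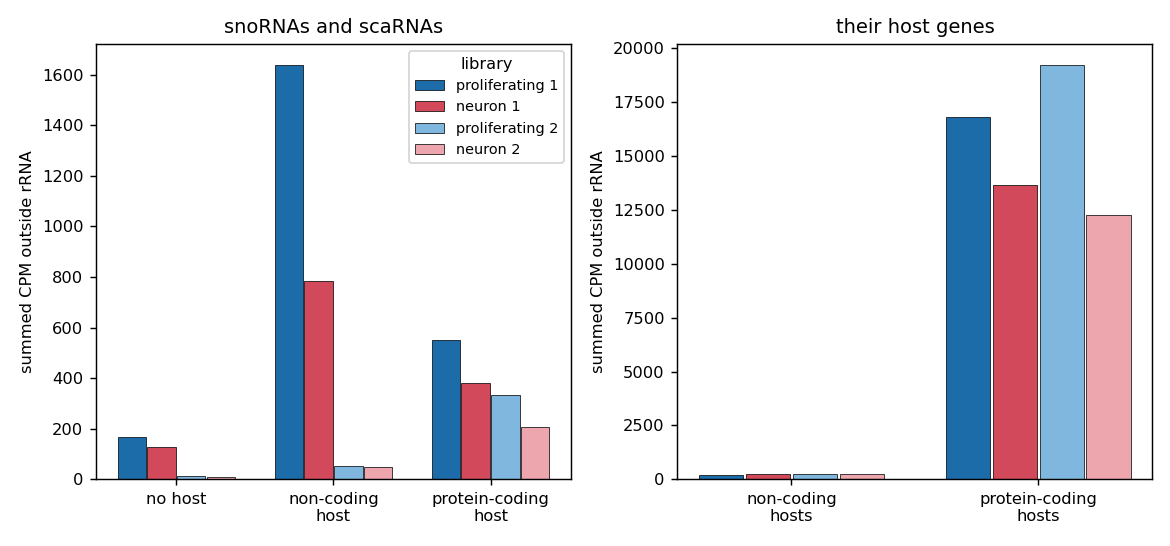
Summed CPM outside rRNA in each library of the 60 snoRNAs and scaRNAs by genomic setting (left) and of their host genes (right, on its own scale). Bars of RNAs with a non-coding host drop from 1639 and 782 CPM with number 1 to 53.7 and 48.6 CPM with number 2, while the log2 ratios of the host bars lie between -0.15 and 0.47.

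Proteins that bind or make these RNAs were taken from lists chosen for their roles. No gene of any list was called between groups by edgeR. Between numbers, 8 of 124 tested genes of the 9 protein lists were higher (6.45%, beside 7.17% of all tested genes) and 21 lower (16.9%, beside 17.6%), so the shares lay near the background. Of the 21, 14 passed the filter only through libraries numbered 1, which fixed that they were lower, and of the 106 that passed through both numbers 7 were lower and 8 higher. Proteins of C/D box particles and their assembly had 0 higher and 3 lower of 11. Ruvbl2, an ATPase of particle assembly, was at -3.27, and the filter fixed the direction of both Ruvbl2 and Rrp9. Of 6 for H/ACA box particles, Naf1, an assembly factor, was higher at 2.18 (SE 0.67, edgeR adjusted p = 0.024) and Nhp2, a core protein, lower at -2.21 (SE 0.72, edgeR adjusted p = 0.032). For the Cajal body and snRNA assembly list it was 0 higher and 2 lower of 13, among them Wrap53, which brings scaRNAs to the Cajal body, and both passed only through libraries numbered 1.

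The protein partners of the RNA polymerase III products went in both directions. Mepce, which caps 7SK RNA, was at 75.3, 0, 60.1 and 4.86 CPM and was the 1 gene called of 10 in the 7SK list (log2 fold change -4.31), having passed the filter only through libraries numbered 1. Rpp30, a subunit of RNase P and RNase MRP, was at 3.42, 111, 20.4 and 89.0 CPM and was the 1 gene called of 4 tested in its list (3.21, SE 0.76, edgeR adjusted p = 0.007). In the list of RNA polymerase III and its factors, 1 of 22 was higher, Ssb, which binds the ends of its transcripts, at 3.17 (SE 0.77, edgeR adjusted p = 0.008), and 5 were lower, with Maf1, its repressor, at -3.79 and among the 3 of these whose direction the filter fixed. The medians of these 3 lists were 0.41, 0.80 and -0.05, beside 0.13 over all tested genes.

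Spliceosomal proteins had 3 higher and 5 lower of 31. Of the 5, Snrpa, Snrpf and Sart1 passed the filter only through libraries numbered 1, which fixed their direction. Those of the minor spliceosome had 1 higher and 0 lower of 6, the former Rnpc3 at 2.52 (SE 0.66, edgeR adjusted p = 0.012). For the snRNA promoter complex and Integrator it was 1 higher and 4 lower of 21. The filter fixed the direction in the same way for Snapc2, Ell and Ints11 of these 4. Among the host transcripts 2 were higher, Snhg1 and Snhg14, and 1 lower, Snhg7, of 13. Snhg14 passed the filter only through libraries numbered 2 and Snhg7 only through those numbered 1, so the direction of each was fixed. Of 8 tested other short structured RNAs outside the name rule, 6 were lower in the libraries numbered 2 and 0 higher. All but Rny3 of these 6 passed the filter only through libraries numbered 1, so that their direction was fixed. Terc, the RNA of telomerase and itself an H/ACA box RNA, was at 267, 4.88, 95.01 and 0 CPM, and Rn7s1, a signal recognition particle RNA, was at 164, 4.88, 229 and 0 CPM. The Y RNA Rny3, chosen here after its values were seen, was at 544, 40.7, 222 and 11.3 CPM, a log2 fold change of -3.52 (SE 0.78, edgeR adjusted p = 0.005).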

How the data were processed

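RNA was measured in 4 libraries of iMOP cells, 2 per group. Per the labels' protocols, RNA was extracted with TRIzol, treated with DNase, depleted of rRNA with a NEBNext kit and built into libraries with a stranded Takara SMARTer kit. The submitters' processing notes name HISAT2, SAMtools, featureCounts, DESeq2 and the build mm10. Versions, annotation, and the strand, overlap and multiple-mapping settings are not given in the sources used here. Therefore counts of overlapping, antisense or near-identical genes are uncertain. The authors deposited raw counts per gene, and RPKM values, which scale counts by gene length and library total. The ratio of the deposited count to RPKM gave 1 length per gene, within a tolerance of 0.001, for 17709 of 17709 genes, equal to the RefSeq length for 65 of the 69 members and 2 times it for 4. A GENCODE gene was at the position of 68.

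The totals ranged from 3150354 counts (proliferating 1) over 8368169 (neuron 2) and 27424909 (neuron 1) to 32913243 (proliferating 2). Set aside as rRNA or rRNA-like were 7 genes (mt-Rnr1, mt-Rnr2, AY036118, Gm15564, Lars2, Mir6236 and Rn18s-rs5). Shares have 95% Wilson intervals, which like the limit of 3 counts cover counting error only. Raw counts were tested with edgeR 4.0.16 in R 4.3.3 (quasi-likelihood test, TMM, filterByExpr, Benjamini-Hochberg adjustment over 9009 genes, threshold 0.05), with group or replicate number as the only term. Shares were compared with two-sided exact permutation tests, in 2 families of 5 classes, with no value low enough for an adjustment to matter. Alternatives were DESeq2 1.42.0, limma 3.58.1 on log2(RPKM + 0.1) and log2(RPKM + 1), other scalings, filters and denominators, a replicate block, and leaving out each library.

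On simulated data the group fit (7573 genes) recovered 0 of 48, 43, 44 and 46 genes changed 2-, 4-, 8- and 16-fold. The number fit (7989 genes) recovered 1 of 43, 9 of 47, 29 of 49 and 47 of 48, with 6 unchanged genes called. The members, the lists and the rule for named genes were chosen with earlier results of these data known. The rule named Rn7sk, Rpph1, Rmrp, the 6 members of each other class with the highest mean CPM, up to 6 called members per class and direction, members at the count minimum, up to 2 called genes per list and direction, and host genes of named snoRNAs. Other members are described by their ranges, or were named after their values were seen. GC content of the other genes is that of the longest GENCODE transcript of a symbol, found for 96.2% of 8989.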

Additional observations from a re-analysis of the deposited data

How the results depend on the processing

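Of 13 members called between replicate numbers, 9 kept their call and direction under every alternative run. For 6 of them (Rnu12, Scarna13, Scarna2, Snora73b, Snora74a and Snord17) the filter fixed the direction, so that says nothing of stability, and the other 3 are Rmrp, Rpph1 and Snora73a. Members called lower numbered 9 to 17 over all alternatives. Members called higher were 0 by limma with either pseudocount and 0 to 2 when a library was left out. Genes called higher between numbers, 646 here, were 237 with library totals alone, 18 and 10 by limma on log2(RPKM + 0.1) and log2(RPKM + 1), 1147 with a replicate block (group and number both in the model) and 45 to 1289 without 1 library. Genes called lower, 1587 here, were 2777 by limma on log2(RPKM + 0.1) and 472 to 1645 without 1 library. List genes called higher, 8 here, were 5, 0, 0, 16 and 0 to 15 in the same order, and those called lower, 21 here, were 40 and 4 to 20. RPKM moved the median of all genes between numbers from 0.13 to -1.43 and -0.62, and between groups from -0.03 to 0.81 and 0.34. Between groups the replicate block called 56 genes higher and 29 lower, with 0 members, where 0 were called without it. Deviations of same-numbered libraries correlated at 0.74, but with 2 pairs and no meaning given the numbers are not taken to pair the samples.

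Directions between groups reversed by limma with the smaller and larger pseudocount for Rn7sk (0.56, 0.56), Rpph1 (0.15, 0.12), Rmrp (0.40, 0.38), Snora73a (0.95, 0.64) and Snora81 (0.72, 0.70). Without 1 library they ran from -1.82 to 0.85, -6.17 to 4.12, -3.95 to 2.42, -3.10 to 2.95 and -2.76 to 1.83. Between numbers Rnu3a reversed to -1.58 and -1.57 by limma (-0.39 to 0.97 without 1 library) and Snord21 to -0.18 and -0.18. With all counts as denominator, class differences between groups reversed to 0.56 (7SK, RNase P and RNase MRP RNAs), 0.056 (U RNAs), 0.63 (scaRNAs), 0.37 (H/ACA box) and 0.46 (C/D box), and without 1 library they ran from -2.39 to 1.17, -1.501 to -0.72, -2.66 to 1.58, -2.09 to 0.49 and -1.72 to 0.31. U RNAs between numbers ran from -1.21 to 0.17. Without Snora81, a setting added after seeing the data, members with a protein-coding host went from -0.79 to -1.73 on average over groups, and those overlapping a host exon reversed from 0.05 to -1.08, and members under 45% GC from 0.87 to -0.71. The cause of these changes was not tested. Depth limits 3 of the libraries, where 51 (proliferating 1), 61 (proliferating 2) and 62 (neuron 2) of the 69 members had under 10 counts, against 17 in neuron 1.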
